A study of Mus musculus with 9 samples.

Results

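The 9 genes described here are the markers and lineage factors by which a cell is commonly recognised as a macrophage: Adgre1, Ptprc, Cd14, Cd68, Lyz2, Aif1, Spi1, Cebpb and Maf. They were chosen by name and not by their values, as every probe that carries one of these gene names, with Adgre1 under its older array name Emr1 and Spi1 under Sfpi1. This gave 12 probes of the 55681 on the array and 9 of the 23371 genes that could be named. RNA came from peritoneal macrophages of male mice in 3 groups of 3 arrays each. Group Ctrl was cultured alone in regular medium for 24 h. Group T was co-cultured for 24 h with CT-26, a mouse colorectal carcinoma line, in the lower chamber of a Transwell, in which cells can migrate through the pores of a membrane into an upper chamber. Group M holds the migratory macrophages of such a co-culture, taken from the upper chamber after a time not given in the sources used here. No genotype, strain or age of the animals is given in those sources. The macrophages of all 3 groups were sorted by flow cytometry by 2 surface proteins, CD45, encoded by Ptprc, and the macrophage antigen encoded by Adgre1, so both of these genes were also sort markers. The cell type label of the T samples calls them migratory, whereas their titles, descriptions and agent labels place them in the lower chamber, and the groups follow the latter.

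Macrophages depend on PU.1, the transcription factor encoded by Spi1, which opens myeloid enhancers together with C/EBP factors such as the one encoded by Cebpb, and on MAF family factors that hold mature cells in their differentiated state. The adhesion-type receptor encoded by Adgre1 is high on the large resident macrophages of the mouse peritoneal cavity and lower on cells newly derived from monocytes. CD45 is a tyrosine phosphatase of all nucleated blood cells, and CD14 presents bacterial lipopolysaccharide to the TLR4 complex. CD68 is a glycoprotein of the lysosome membrane, lysozyme 2 cleaves bacterial cell walls, and AIF1, also called IBA1, binds actin in ruffling membranes.

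Levels are given on a log2 scale as the processed signal of a probe relative to the 75th percentile of its array, so that 0 is the level of the 75th percentile and a difference of 1 is a doubling. Probes well above background made up 61.0% to 67.0% of those on the M arrays, 66.6% to 72.6% on the T arrays and 70.3% to 78.9% on the Ctrl arrays. The net signal of the negative control spots was 59.2 on M1 and 45.8 on M3, against 24.2 to 36.4 on the other arrays. Ctrl3 lay closest to Ctrl2 (r = 0.981 over tested genes), but it correlated more closely with M2 (r = 0.976) than with Ctrl1 (r = 0.969). Ctrl3 was also the highest Ctrl array for 7 of the 8 member genes that could be tested. The Ctrl and M arrays lay on slide 1 and the T arrays on slide 2, so that T and its slide cannot be told apart, and only M against Ctrl is a comparison within 1 slide. The labels do not tell whether replicate arrays stem from separate animals or cultures. The tests therefore measure the spread among these samples only, and part of it may be technical.

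Of the 9 genes, 8 were well above background on all arrays and were tested with limma among 17897 genes, with p-values adjusted over all of them. Maf was not well above background on all arrays of any group and was not tested. In M against Ctrl, 5 of the 8 genes rose (Adgre1, Lyz2, Aif1, Ptprc and Cd14) and 0 fell, where 12.4% of all tested genes rose and 11.1% fell. In M against T, 4 rose (Adgre1, Lyz2, Aif1 and Ptprc) and 0 fell, against a background of 14.8% higher and 10.8% lower. In T against Ctrl, 2 rose (Cd14 and Lyz2) and 0 fell, where 17.6% of all genes rose and 26.9% fell. Cd68 and Cebpb passed the test in no comparison. The median log2 difference over the 8 genes was 0.73 in M against Ctrl, 0.64 in M against T and 0.21 in T against Ctrl, beside medians of -0.09, 0.11 and -0.13 over all tested genes. The comparisons share groups, so these counts are not independent of each other. In bulk RNA, fewer cells of a type and less RNA per cell cannot be told apart.

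**Figure D1:**
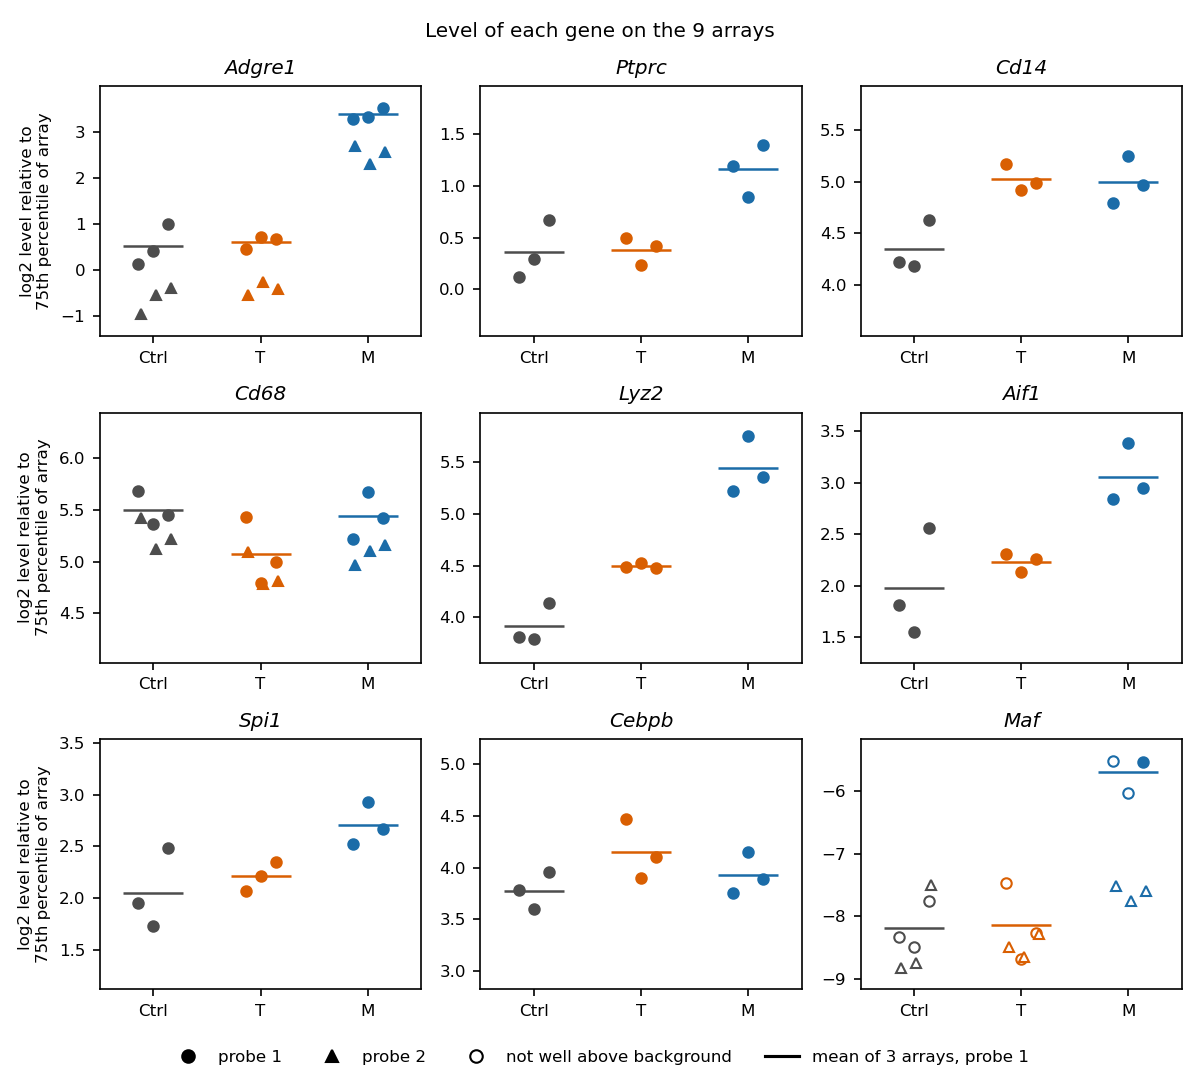
Level of each of the 9 genes on the 9 arrays, in log2 units relative to the 75th percentile of the array, with the group (Ctrl, T or M) along each x axis and a y axis of its own range in each panel. Circles are the first probe of a gene, triangles a second one, open symbols a spot not well above background and bars the mean of 3 arrays. The 3 M arrays of Adgre1 lie between 3.28 and 3.52, above all 6 other arrays, whereas the groups of Cd68 and Cebpb overlap.

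**Figure D2:**
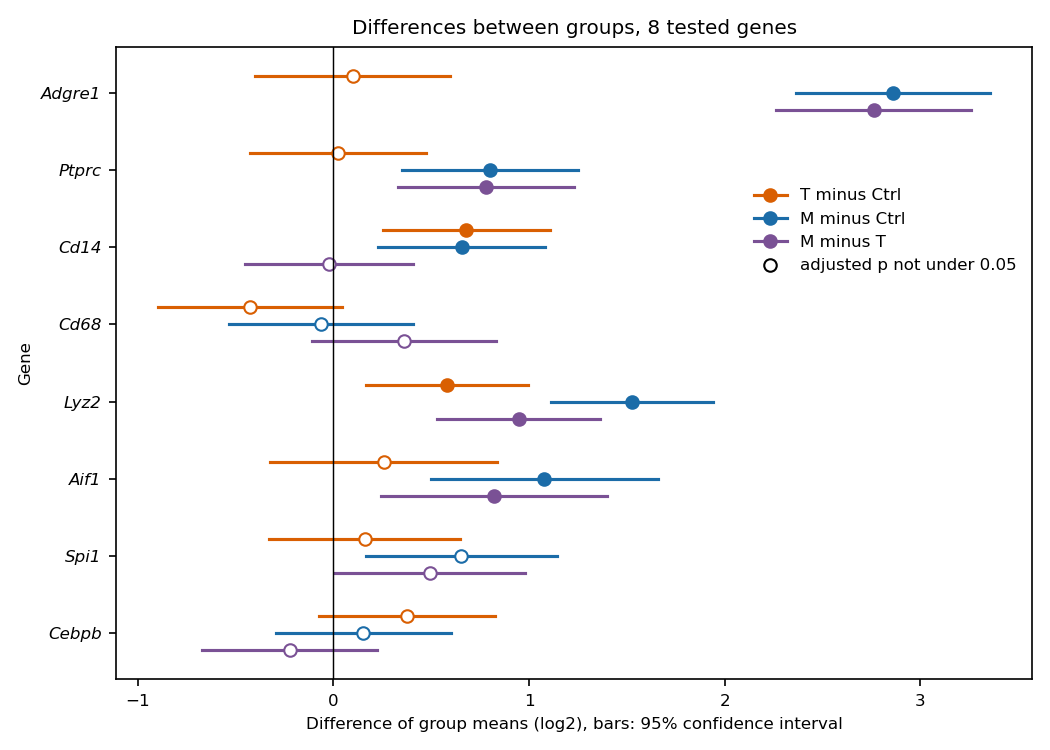
Difference of group means (x axis, log2) for the 8 tested genes (y axis), with bars for the 95% confidence interval of the fit and 3 arrays in each group. Filled points have an adjusted p under 0.05 over all 17897 genes. Adgre1 stands at 2.86 in M against Ctrl and 2.76 in M against T, and its difference between T and Ctrl (0.10) has an interval that spans 0.

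Adgre1 had the highest difference of the set. Its first probe (chr17:57622868-57622927, plus strand, mouse build mm9) read 0.14, 0.41 and 1.0 on the Ctrl arrays, 0.46, 0.72 and 0.66 on the T arrays, and 3.28, 3.32 and 3.52 on the M arrays. The M arrays stood apart from all others, while T lay inside the range of Ctrl. Group means were 0.51 ± 0.44 in Ctrl, 0.61 ± 0.14 in T and 3.37 ± 0.13 in M (SD, n = 3). M exceeded Ctrl by 2.86 ± 0.22 log2 units (SE), or 7.26-fold (limma adjusted p = 1.29e-05), and T by 2.76 ± 0.22, or 6.78-fold (limma adjusted p = 1.97e-05). The difference ranked 204th from the highest of 17897 genes in M against Ctrl and 109th in M against T. T differed from Ctrl by 0.10 (95% interval -0.40 to 0.60, limma adjusted p = 0.747).

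The second Adgre1 probe lies at chr17:57620350-57620409 on the plus strand of mm9, and its 60 bases are shown because it is a separate reading of the gene with the widest difference:
Adgre1 second probe: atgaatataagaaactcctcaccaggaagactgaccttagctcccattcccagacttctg
It read -0.97, -0.54 and -0.40 in Ctrl, -0.54, -0.26 and -0.42 in T, and 2.68, 2.30 and 2.55 in M. As with the first probe, M lay apart while Ctrl and T overlapped. M exceeded Ctrl by 3.14 ± 0.20 (SE), or 8.84-fold (limma adjusted p = 5.70e-06 over all tested probes), and T by 2.91 ± 0.20 (limma adjusted p = 1.16e-05). The processed signal of the first probe ran from 2423 to 5998 on the Ctrl and T arrays and from 24800 to 36062 on the M arrays, so no array read this gene near background or saturation. The rise over Ctrl passed the test in all 21 alternative settings, with differences between 2.67 and 3.16. The rise over T passed in 20 of 21. The exception was the authors' deposited value table, in which the difference was 1.87 (limma adjusted p = 0.107). In that table the T1 and T3 columns held 0.45 and 0.65 for the first probe, within 0.01 of the scanner files, but the T2 column held 3.41 and matched no scanner file. Without that column the table gave 2.82 (limma adjusted p = 0.000173).

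Ptprc, the other sort marker, encodes the phosphatase CD45 (probe at chr1:139961083-139961142, minus strand, mm9). It read 0.12, 0.29 and 0.67 in Ctrl, 0.50, 0.24 and 0.42 in T, and 1.19, 0.89 and 1.40 in M. The M arrays were all above the others, and Ctrl and T overlapped. M exceeded Ctrl by 0.80 ± 0.20 (SE), or 1.74-fold (limma adjusted p = 0.0216), and T by 0.78 ± 0.20, or 1.71-fold (limma adjusted p = 0.0185). T and Ctrl differed by 0.02 (95% interval -0.43 to 0.47). The call against Ctrl ended without Ctrl1, Ctrl2, M1 or M3 (limma adjusted p between 0.0678 and 0.0869), and in the fit of the slide 1 arrays alone (limma adjusted p = 0.0561). That against T passed in 13 of 21 alternatives. It ended without M1, M3, T2 or T3 (limma adjusted p between 0.0506 and 0.0795), with median scaling (0.66, limma adjusted p = 0.114) and in the deposited table with or without its T2 column (limma adjusted p of 0.122 and 0.0784). Without both M1 and M3 neither call held (limma adjusted p = 0.382 against Ctrl and 0.273 against T).

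Cd14 encodes the lipopolysaccharide co-receptor, and it was higher than in Ctrl in both T and M (probe at chr18:36884969-36885028, minus strand, mm9). It read 4.22, 4.19 and 4.63 in Ctrl, 5.17, 4.92 and 4.98 in T, and 4.79, 5.25 and 4.97 in M. Neither T nor M overlapped with Ctrl, while T and M overlapped with each other. The rise over Ctrl was 0.68 ± 0.19 (SE), or 1.60-fold, in T (limma adjusted p = 0.0171) and 0.66 ± 0.19, or 1.58-fold, in M (limma adjusted p = 0.0360). M and T differed by -0.02 (95% interval -0.45 to 0.40). The call of T ended without Ctrl1, Ctrl2, T1 or T3 (limma adjusted p between 0.0515 and 0.0633), and that of M without any 1 of Ctrl1, Ctrl2, M1, M2 and M3 (limma adjusted p between 0.0529 and 0.121) and in the slide 1 arrays alone (limma adjusted p = 0.0797). It passed in 11 of 21 alternatives.

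Cd68, the gene of the lysosomal glycoprotein, showed no difference that passed. Its first probe (chr11:69477775-69477834, minus strand, mm9) read 5.69, 5.37 and 5.46 in Ctrl, 5.44, 4.79 and 5.0 in T, and 5.22, 5.68 and 5.42 in M. All 3 groups overlapped. M and Ctrl differed by -0.06 (95% interval -0.53 to 0.41, limma adjusted p = 0.835), M and T by 0.36 (-0.11 to 0.83, limma adjusted p = 0.241), and T and Ctrl by -0.43 (-0.90 to 0.04, limma adjusted p = 0.125). A second probe at chr11:69478979-69479038 gave differences of -0.17, 0.18 and -0.36 in the same order, of which 0 passed the test. The T arrays of this second probe (5.10, 4.78 and 4.81) all lay below its Ctrl arrays (5.42, 5.12 and 5.22). The share of all probes with this pattern was not counted, and 26.9% of all tested genes fell in T against Ctrl. Without T1, the difference of the first probe between T and Ctrl was -0.61 and passed (limma adjusted p = 0.0453).

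Lyz2 encodes lysozyme, a secreted and lysosomal enzyme made by macrophages and neutrophils. Its probe lies at chr10:116719175-116719234 on the minus strand of mm9, and its sequence is shown because Lyz1, a close copy of the gene, has a probe of its own and the cross-reading of such pairs was not tested:
Lyz2 probe: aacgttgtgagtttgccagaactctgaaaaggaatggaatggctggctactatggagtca
It read 3.81, 3.79 and 4.14 in Ctrl, 4.49, 4.52 and 4.48 in T, and 5.22, 5.75 and 5.36 in M. The 3 groups did not overlap, with Ctrl lowest and M highest. M exceeded Ctrl by 1.53 ± 0.19 (SE), or 2.88-fold (limma adjusted p = 0.000323), and T by 0.95 ± 0.19, or 1.93-fold (limma adjusted p = 0.00475). T exceeded Ctrl by 0.58 ± 0.19, or 1.49-fold (limma adjusted p = 0.0294). Lyz2 was thus the only one of the 8 genes to pass in all 3 comparisons. The rise of M over Ctrl passed in all 21 alternatives, and that over T in 20 of 21, the exception again being the deposited table (0.57, limma adjusted p = 0.301). The rise of T over Ctrl ended without Ctrl1, Ctrl2, T1, T2 or T3 in turn (limma adjusted p between 0.0598 and 0.0930). Lyz1, whose product is the lysozyme of Paneth cells, read 4.59, 4.47 and 4.92 in Ctrl, 5.06, 4.66 and 4.71 in T, and 5.62, 6.01 and 5.91 in M. It rose by 1.19 ± 0.20 (SE) in M against Ctrl (limma adjusted p = 0.00244), so the share of each copy in the signal of the other is uncertain.

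Aif1, the actin-binding protein IBA1, was higher in M (probe at chr17:35307959-35308018, minus strand, mm9). It read 1.82, 1.55 and 2.56 in Ctrl, 2.31, 2.13 and 2.26 in T, and 2.84, 3.38 and 2.94 in M. The M arrays lay above all others, and the Ctrl arrays spread widely around those of T. M exceeded Ctrl by 1.08 ± 0.26 (SE), or 2.11-fold (limma adjusted p = 0.0180), and T by 0.82 ± 0.26, or 1.77-fold (limma adjusted p = 0.0425). T and Ctrl differed by 0.26 (95% interval -0.32 to 0.84), and by 0.55 without Ctrl3, where the difference passed (limma adjusted p = 0.0435). The rise over Ctrl ended without Ctrl1 or Ctrl2 (limma adjusted p of 0.0635 and 0.0722), and without both M1 and M3 (1.40, limma adjusted p = 0.0876). The rise over T passed in 10 of 21 alternatives. It ended without any 1 of the 6 arrays compared (limma adjusted p between 0.0533 and 0.136), without both M1 and M3 (limma adjusted p = 0.0868), with median scaling (0.70, limma adjusted p = 0.135), with the replicate block (limma adjusted p = 0.0582) and in the deposited table with or without its T2 column (limma adjusted p of 0.275 and 0.125).

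Among the 3 lineage factors, Spi1 came closest to the test. The positions given for its probe span chr2:90939665-90953452 on the plus strand of mm9, 13788 bases for a probe of 60, so that it does not match 1 unbroken stretch of the genome. It read 1.95, 1.73 and 2.48 in Ctrl, 2.07, 2.21 and 2.35 in T, and 2.52, 2.93 and 2.67 in M. Every M array lay above every other array. Non-overlap in this direction was found for 6 of the 8 genes and 16.9% of all genes in M against Ctrl, and for 5 of the 8 and 28.6% of all genes in M against T. In T against Ctrl it was found for 2 of the 8, Cd14 and Lyz2, and 22.7% of all genes. The difference was 0.65 ± 0.22 (SE), or 1.57-fold, against Ctrl (limma adjusted p = 0.0537) and 0.49 ± 0.22 against T (limma adjusted p = 0.125), and neither passed. Against Ctrl it passed in 8 of 21 alternatives, among them the fit without Ctrl3 (0.87, limma adjusted p = 0.00565).

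Cebpb, a C/EBP factor of inflammatory and alternative activation, read 3.78, 3.60 and 3.96 in Ctrl, 4.47, 3.90 and 4.10 in T, and 3.76, 4.15 and 3.89 in M (probe at chr2:167515828-167515887, plus strand, mm9). The groups overlapped in all 3 comparisons. T differed from Ctrl by 0.38 (95% interval -0.07 to 0.83, limma adjusted p = 0.152), M from Ctrl by 0.15 (-0.29 to 0.60, limma adjusted p = 0.584) and M from T by -0.22 (-0.67 to 0.22, limma adjusted p = 0.458). The difference between T and Ctrl passed when the arrays were scaled to their medians (0.80, limma adjusted p = 0.0163), by quantiles (0.50, limma adjusted p = 0.00722) or to 15 housekeeping genes (0.62, limma adjusted p = 0.0101).

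Maf, the factor c-Maf, was barely detected. Its first probe (chr8:118227736-118227795, minus strand, mm9) read -8.33, -8.48 and -7.76 in Ctrl, -7.47, -8.67 and -8.26 in T, and -5.52, -6.03 and -5.54 in M. M3 was the single array on which it was well above background. By measured values M lay above the other groups, but 8 of the 9 readings were not well above background. The second probe (chr8:118207273-118207332) was well above background on 0 of 9 arrays, with readings from -8.81 to -7.50.

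The RefSeq promoter table of build GRCm38.p6 held windows for 5 of the 9 genes, 6 windows in all. The 250 bases before the annotated start are shown for Lyz2 and Aif1, which rose in M, and for Cd68, which did not pass there. Capitals mark matches, on either strand, to a PU.1 core (GAGGAA), a C/EBP site (TTGCNNAA) or a MAF half-site (TGCTGA), and no match overlapped another.
Lyz2, minus strand, chr10:117282273-117282522: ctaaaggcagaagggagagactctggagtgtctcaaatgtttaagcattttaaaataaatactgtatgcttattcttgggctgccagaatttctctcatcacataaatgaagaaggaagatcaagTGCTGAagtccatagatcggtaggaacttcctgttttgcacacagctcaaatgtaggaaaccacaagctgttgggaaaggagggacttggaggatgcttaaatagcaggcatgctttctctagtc
Aif1, minus strand, chr17:35176053-35176302: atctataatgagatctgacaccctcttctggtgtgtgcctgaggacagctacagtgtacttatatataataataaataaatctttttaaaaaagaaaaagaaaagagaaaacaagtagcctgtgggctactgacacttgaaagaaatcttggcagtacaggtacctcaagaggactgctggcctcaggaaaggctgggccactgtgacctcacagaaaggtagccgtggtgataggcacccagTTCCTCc
Cd68, minus strand, chr11:69666171-69666420: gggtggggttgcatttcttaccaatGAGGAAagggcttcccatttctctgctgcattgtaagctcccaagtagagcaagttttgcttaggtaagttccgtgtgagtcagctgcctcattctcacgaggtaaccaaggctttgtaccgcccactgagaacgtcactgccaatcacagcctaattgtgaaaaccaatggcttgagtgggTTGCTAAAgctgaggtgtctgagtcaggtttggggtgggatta
The Aif1 window held 1 match to the PU.1 core, the Cd68 window 1 to the PU.1 core and 1 to the C/EBP site, and the Lyz2 window 1 to the MAF half-site. For Ptprc, which also rose in M, a window not shown held 1 match to the PU.1 core and its other window held no match. The Cebpb window, also not shown, held no match. Of all 32851 windows of 250 bases, 23.3% held the PU.1 core, 9.56% the C/EBP site and 16.1% the MAF half-site. A match to these letters is a description of the window and not a bound site.

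Genes around the 9 were read from lists named by role. Of all 17897 tested genes, 17.6% rose and 26.9% fell in T against Ctrl. The shares were 12.4% and 11.1% in M against Ctrl, and 14.8% and 10.8% in M against T. Of 28 tested transcription factors of the myeloid lineage, 13 rose and 2 fell in T against Ctrl, 9 rose and 2 fell in M against Ctrl, and 5 rose and 8 fell in M against T. Their median differences were 0.59, 0.39 and -0.26. Cebpe, a C/EBP factor known from granulocyte maturation, rose by 2.60 ± 0.21 (SE) in M against Ctrl (limma adjusted p = 1.50e-05) and Batf3, a factor of cross-presenting dendritic cells, by 2.41 ± 0.21 (limma adjusted p = 2.50e-05). Mef2c fell by 1.92 ± 0.29 (SE) in M against Ctrl (limma adjusted p = 0.00139). In T against Ctrl the genes that rose included Gata2 (2.36), Id2 (2.07) and Maff (1.87), each with an SE between 0.17 and 0.20 and a limma adjusted p between 2.86e-05 and 3.81e-05. In M against T the largest were Batf3 (1.93) and Tal1 (1.74) upward, and Maff (-1.72) and Spib downward. Spib, the closest relative of Spi1, was below the mark of well above background on the 3 M arrays and was at least 3.67-fold higher in T (limma adjusted p of the measured values = 0.000279). Without M1 and M3 the counts in M against Ctrl were 4 and 1, and without Ctrl3 they were 14 and 2.

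Of 36 core genes that macrophages of many tissues share, 15 rose and 3 fell in T against Ctrl, 11 rose and 1 fell in M against Ctrl, and 7 rose and 6 fell in M against T. The shares of all genes, in the same order, were 17.6% and 26.9%, 12.4% and 11.1%, and 14.8% and 10.8%. The list follows a published signature from memory and may differ from it. The largest rises in M against Ctrl were those of Sqor, a mitochondrial sulfide oxidase (4.18 ± 0.23, SE), Fcgr3, a receptor for IgG (2.82 ± 0.25), Hacd4 (2.04 ± 0.16) and Tcn2, the cobalamin carrier (1.92 ± 0.19), with limma adjusted p between 1.14e-06 and 7.52e-05. Sqor and Fcgr3 also rose in T against Ctrl, by 2.12 ± 0.23 and 2.38 ± 0.25 (limma adjusted p of 0.000132 and 8.57e-05). Sqor was higher in M than in T by 2.05 ± 0.23 (limma adjusted p = 0.000166). The T and M arrays of Fcgr3 overlapped, with 2.26 to 2.35 in T and 2.31 to 3.22 in M. Mertk, a receptor for apoptotic cells, went another way, with -5.63, -5.12 and -5.78 in Ctrl, -2.84, -2.83 and -2.62 in T, and -4.96, -5.03 and -5.09 in M. It rose by 2.74 ± 0.20 (SE) in T against Ctrl (limma adjusted p = 8.73e-06) and fell by 2.26 ± 0.20 in M against T (limma adjusted p = 2.94e-05). Abca1, the cholesterol exporter, is counted among the 11 that rose in M against Ctrl, although it was well above background on 0 of 3 arrays of either group. Without M1 and M3, 4 of the 36 rose and 0 fell in M against Ctrl, and without Ctrl3, 17 rose and 2 fell.

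**Figure D3:**
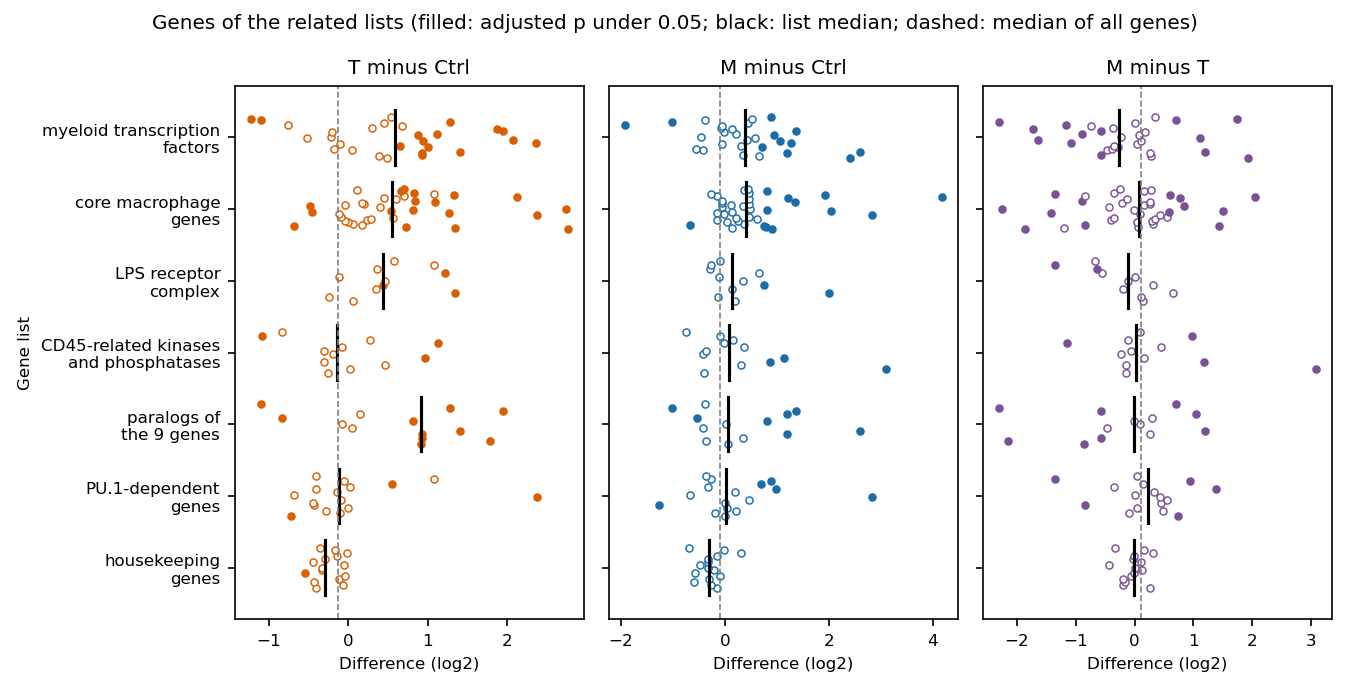
Difference of group means (x axis, log2) for each tested gene of the 7 lists around the 9 genes (y axis), with 1 panel for each comparison. Filled points have an adjusted p under 0.05, black bars are list medians and the dashed line is the median of all 17897 tested genes. Myeloid transcription factors have a median of 0.59 in T minus Ctrl and -0.26 in M minus T. The housekeeping genes have medians of -0.29 in T minus Ctrl, -0.30 in M minus Ctrl and -0.02 in M minus T. Their differences run, in that order, from -0.55 to -0.01, from -0.69 to 0.31 and from -0.44 to 0.32.

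A further list held 11 tested genes of the lipopolysaccharide receptor complex that CD14 serves and of the signalling below it. Of these, 3 rose in T against Ctrl (Irak3, Ticam2 and Ly96) and 2 rose in M against Ctrl (Irak3 and Ly96). In M against T, 2 fell (Tlr4 and Tirap). Among all genes, 17.6% rose in T against Ctrl, 12.4% rose in M against Ctrl and 10.8% fell in M against T. Irak3, a brake on Toll-like receptor signalling, rose by 1.34 ± 0.25 (SE) in T (limma adjusted p = 0.00265) and by 2.0 ± 0.25 in M (limma adjusted p = 0.000392). Ly96, the MD-2 partner of TLR4, rose by 0.43 ± 0.16 and 0.75 ± 0.16 (limma adjusted p of 0.0462 and 0.00906). Tlr4 itself fell by 1.35 ± 0.42 in M against T (limma adjusted p = 0.0384). Without Ctrl3, 7 of the 11 rose in T against Ctrl.

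Of 12 kinases, phosphatases and partners around CD45, 3 rose and 0 fell in M against Ctrl, 3 rose and 1 fell in M against T, and 2 rose and 1 fell in T against Ctrl. The shares of all genes, in the same order, were 12.4% and 11.1%, 14.8% and 10.8%, and 17.6% and 26.9%. Fgr and Lyn, Src family kinases, whose inhibitory tail CD45 dephosphorylates, were among the genes that rose in M against Ctrl. Fgr read -3.06, -3.04 and -2.80 in Ctrl, -2.94, -2.89 and -3.01 in T, and 0.08, 0.04 and 0.29 in M. It rose by 3.11 ± 0.16 (SE) against Ctrl (limma adjusted p = 6.27e-07) and by 3.09 ± 0.16 against T (limma adjusted p = 1.19e-06). Lyn rose by 1.13 ± 0.24 in M against Ctrl (limma adjusted p = 0.00985), and by 0.96 ± 0.24 in T against Ctrl (limma adjusted p = 0.00992). Its T arrays (-1.68 to -1.59) lay within the range of its M arrays (-1.76 to -1.23). The phosphatase gene Ptprj rose by 1.13 ± 0.24 in T against Ctrl (limma adjusted p = 0.00512) and fell by 1.14 ± 0.24 in M against T (limma adjusted p = 0.00736). Without M1 and M3, 1 of the 12 rose in M against Ctrl.

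Of 16 genes known from textbooks to need PU.1, 2 rose and 1 fell in T against Ctrl, 4 rose and 1 fell in M against Ctrl, and 3 rose and 2 fell in M against T, with medians of -0.12, 0.02 and 0.23. The shares of all genes, in the same order, were 17.6% and 26.9%, 12.4% and 11.1%, and 14.8% and 10.8%. Fcgr3 rose against Ctrl in both T and M. Msr1 (0.98 ± 0.20, SE) and Ncf4 (0.88 ± 0.21) also rose in M against Ctrl (limma adjusted p of 0.00726 and 0.0169). Cybb, the catalytic subunit of the phagocyte oxidase, fell by 1.27 ± 0.19 there (limma adjusted p = 0.00124). Among 13 tested paralogs of the 9 genes, 8 rose and 2 fell in T against Ctrl, and 5 rose and 2 fell in M against Ctrl. In M against T, 3 of the 13 rose and 5 fell. Without M1 and M3, the counts in M against Ctrl were 1 and 1 for the PU.1-dependent genes and 3 and 0 for the paralogs. Of 15 housekeeping genes, 1 fell in T against Ctrl and 0 passed in the other comparisons.

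Markers of other cells were read beside these results. The summed linear level of 9 neutrophil genes was 2.70 to 2.74 on the M arrays, 0.88 to 1.11 on the T arrays and 0.52 to 0.99 on the Ctrl arrays. S100a8, which activated macrophages also express, made up most of the sum on the M arrays, where it read 1.15, 1.09 and 1.18. Among the 7 tested genes of the list, those other than S100a8 summed to 0.46 to 0.56 in M, 0.30 to 0.40 in T and 0.41 to 0.90 in Ctrl. Gene by gene, 2 of the 7 rose and 0 fell in M against Ctrl, S100a8 by 4.97 ± 0.21 (SE, limma adjusted p = 2.68e-07) and S100a9, its partner in calprotectin, by 1.58 ± 0.28 (limma adjusted p = 0.00343). In M against T, S100a8, S100a9 and Ngp rose and 0 of the 7 fell (median difference 0.84), and in T against Ctrl 1 rose (S100a8) and 3 fell. These rises in M move with that of Lyz2, which neutrophils also make, and their part in it was not tested. The neutrophil-defining genes Ly6g and Ltf were well above background on 0 of 3 Ctrl and 0 of 3 M arrays and on 1 of 3 T arrays each. Most of the list was detected, however, with 7 of the 9 genes well above background on every Ctrl and M array. On the T arrays 6 to 8 were, and the granule genes Mpo and Elane were detected on all 3 arrays of each group. Of 36 tested markers over 8 lists of other cells, 3 rose and 1 fell in M against Ctrl, 6 rose and 5 fell in M against T, and 5 rose and 17 fell in T against Ctrl. The shares of all genes, in the same order, were 12.4% and 11.1%, 14.8% and 10.8%, and 17.6% and 26.9%. The T cell gene Cd3d is counted among the 3 markers that rose in M against Ctrl, although it was well above background on 0 of 3 M and 0 of 3 Ctrl arrays. The B cell gene Ms4a1 was well above background on 0 arrays, whereas Cd79b, Pax5 and Blk were so on all 3 arrays of each group. Among the 4 tested B cell genes, Blk rose and Cd79b and Cd79a fell in M against T (limma adjusted p between 0.00324 and 0.0419). Blk and Pax5 fell in T against Ctrl, and 0 of the 4 passed in M against Ctrl. The summed level of the 9 epithelial genes was 1.91 to 2.56 in M, 2.13 to 2.56 in T and 2.09 to 3.93 in Ctrl. One epithelial keratin gene, Krt19, nevertheless rose by 3.63 ± 0.27 (SE) in T against Ctrl (limma adjusted p = 1.06e-05), while Epcam fell by 1.60 ± 0.29 (limma adjusted p = 0.00218). The part of other cells in the differences of the 9 genes was not tested.

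For the 5 member genes that differed over the 3 groups (F test of the same fit, which 50.7% of all genes passed), the genes with the most similar levels over the 9 arrays were looked up by Pearson correlation. They included Ppfibp2 (r = 0.996) for Adgre1, Tnfrsf1a (0.993) and Cd82 (0.985) for Cd14, and Bst1 (0.995) and Ctsh (0.994) for Lyz2. Those of Aif1 were Ptgr1 (0.994) and Ccm2 (0.988), and those of Ptprc were Cep162 (0.982) and Hrob (0.976). The 9 points are 3 groups of 3 arrays that share slide and scaling, so a high r describes a shared order of the groups, and it has no test.

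**Figure D4:**
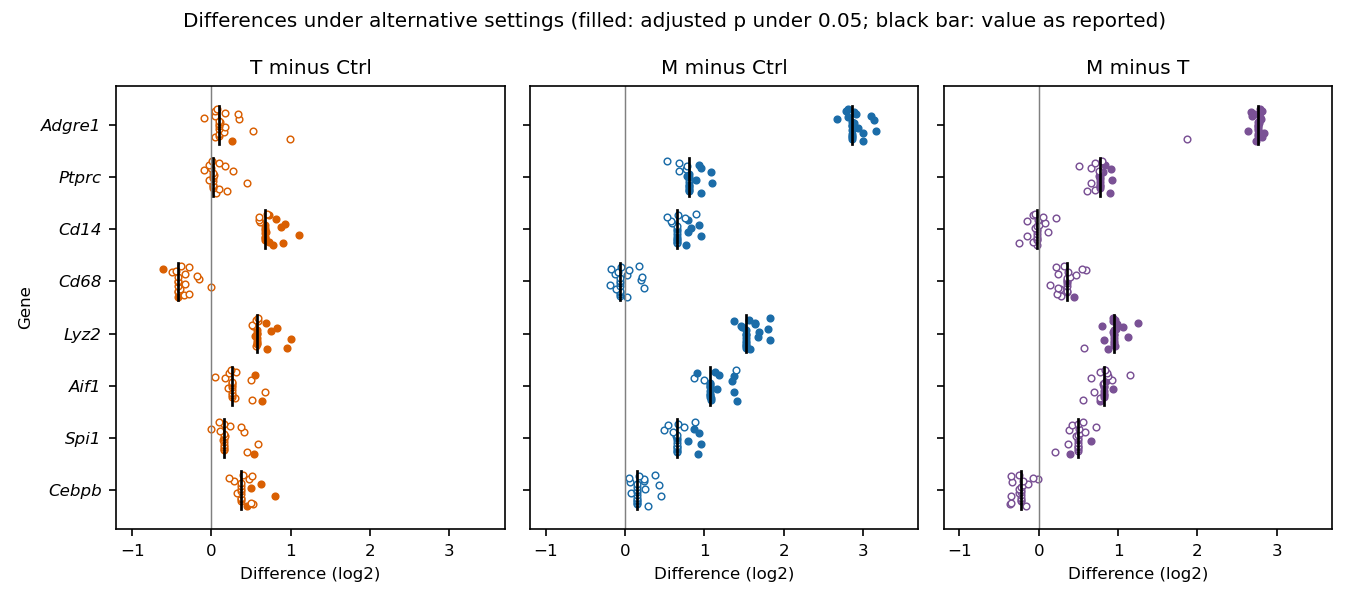
Difference of group means (x axis, log2) of the 8 tested genes (y axis) under each of the 20 or 21 alternative settings, with the reported value as a black bar. Filled points have an adjusted p under 0.05. Adgre1 and Lyz2 keep filled points throughout M minus Ctrl, whereas the points of Ptprc, Cd14, Aif1 and Spi1 are filled in some settings and open in others.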

How the data were processed

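Per the submitters' processing notes, spots were extracted by Agilent Feature Extraction, version 10.7.3.1. Per the file headers, each deposited scanner file gives a background-subtracted processed signal intensity for 62976 spots, with no scaling across arrays. Control spots and outlier flags were left out (147 to 299 outliers an array), spots of a probe were averaged and log2 values were set relative to the 75th percentile of their array. Probes were named through accessions in a RefSeq gene table of GRCm38.p6 (26762 probes) or by array name; probe positions are those of mm9 in the files. A probe was tested if some group had it well above background on each of its 3 arrays, and the brightest stood for its gene. Group means were fitted to all 9 arrays with limma 3.58.1 in R 4.3.3, with Benjamini-Hochberg adjustment over 17897 genes per comparison and a threshold of 0.05. The SE pools the spread of all 9 arrays. The steps were tested on simulated data.

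The deposited value table holds linear intensity values in the columns of Ctrl1 and M1 to M3 and log2 values in the others, with medians of 216, 196, 247 and 220, and of -3.38 (Ctrl2), -3.71 (Ctrl3), -3.76 (T1), -3.93 (T2) and -4.02 (T3). Within 0.001 log2 units and up to a constant, 6 columns matched their own scanner file for over 99.2% of probes, those of M1 and M2 matched each other's, and that of T2 matched none. The scale and centring of the T2 column are unknown beyond its values. The table was used as an alternative.

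The deviations of same-numbered T and Ctrl arrays from their group means correlated at r = 0.55, 0.12 and 0.38. Those of M arrays correlated at -0.27, -0.19 and 0.02 with Ctrl, and at -0.27, -0.15 and 0.03 with T. Arrays of different numbers were not compared, so these values cannot tell whether same-numbered arrays were paired. Alternatives covered background correction, scaling, filters, probe choice, the arrays fitted, weights, variance trend, a replicate block and leaving out arrays. The settings without M1 and M3, without the T2 column of the table and with housekeeping scaling were chosen after seeing the data.

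The 9 genes, the lists and the naming rule were chosen with earlier results of these data known. All members and probes are named, and from each list up to 4 genes past the threshold with the largest differences were eligible in each comparison, of which those described are a part. Member values, Lyz1 and Mertk are given on every array. Ly6g, Ltf and Ms4a1 are named as defining markers. Some genes eligible by this rule are not reported here.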

Additional observations from a re-analysis of the deposited data

Results flagged for a closer look

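The T2 column of the authors' deposited value table matched none of the 9 scanner files, and it enters only the alternative fitted on that table. It correlated with the scanner files of M1, M2, M3, T1, T2 and T3 at r between 0.980 and 0.982 over probes, and with those of the Ctrl arrays at 0.947 to 0.972. For 9 probes of the genes described here it lay above every Ctrl array. Both Adgre1 probes stood there at the level of the M arrays, with 3.41 for the first and 2.55 for the second, in log2 units relative to the array's 75th percentile, where the highest of the Ctrl and T arrays read 1.0 and -0.26. Lyz2 (5.66) and Aif1 (2.92) also lay within the range of the M arrays. Cd14 (5.60), Spi1 (3.07) and the first Maf probe (-2.73) lay above all 9 arrays, the last against a highest array value of -5.52. Ptprc (0.77) lay above the Ctrl and T arrays and below those of M, and Cebpb (4.33) lay within the range of T. The 3 remaining probes, both of Cd68 and the second of Maf, did not exceed the Ctrl arrays. The labels do not say what was hybridised for this column.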

How the results depend on the processing

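The 5, 4 and 2 members that rose in M against Ctrl, M against T and T against Ctrl, with 0 that fell in each, were recounted under 20 or 21 alternatives each, and no difference of a member that passed the test changed its sign. Leaving out 1 array at a time gave 2 to 6 higher in M against Ctrl, 2 to 3 in M against T, and 0 to 3 higher and 0 to 1 lower (Cd68) in T against Ctrl. In M against Ctrl, 3 rose when the slide 1 arrays were fitted alone. Without M1 and M3, which leaves 1 M array assumed to vary like the other groups, 2 rose in M against Ctrl and 2 in M against T. In M against T, 2 rose with median scaling (Adgre1 and Lyz2) and 0 with the deposited table. Without its T2 column, that table gave 2 there and 1 in T against Ctrl. Array quality weights, whose fit stopped before convergence, gave 6 higher and 1 lower in T against Ctrl, where 13948 genes passed in place of 7973. A slide or scan block could not be fitted for T, whose arrays are alone on slide 2. With the replicate number as a block, the counts in T against Ctrl stayed 2 and 0 and no call there changed, while Cd14 in M against Ctrl (adjusted p = 0.0553, limma) and Aif1 in M against T (adjusted p = 0.0582, limma) no longer passed. Median scaling moved the all-gene median in T against Ctrl from -0.13 to 0.29, and the share of calls that were higher went from 39.5% to 66.5%, and to 52.7% by quantiles and 56.8% by housekeeping genes. In M against Ctrl it went from 52.7% to 74.7%, 66.4% and 83.7%, and in M against T from 57.8% to 45.0%, 54.7% and 63.2%. The number of genes that passed in M against Ctrl, 4212, was 1859 to 8109 with 1 array left out, 2219 on slide 1 alone, 2026 in the deposited table, 973 without M1 and M3, and 11119 with weights. In M against T, 4579 genes became 2850 to 3920, 1386 in the table, 2889 in the table without T2, 2467 without M1 and M3, and 8550 with weights; without any filter on dim probes 7097 passed. The number of arrays, 3 a group, limits the precision, and signal over background limited Maf alone among the 9 genes.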
